A study of Homo sapiens with 20 samples.

Results

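Strong contacts of neuroectoderm were taken as contacts within a chromosome that scored 10 or more in neuroectoderm (NE) and under 5 in definitive endoderm (DE). They were chosen by these measured scores, and 509 met the rule of 182303 contacts within chromosomes and 766138 contacts listed in all. The values came from Poised Enhancer Capture Hi-C, in which captured DNA fragments (baits) are scored for contact with other fragments (other ends), and covered 20 libraries of 10 conditions. NE was made from day 14 HNES1 cells by 10 days of culture with A8301 and LDN193189, followed by sorting of CD56+ EpCAM- cells. DE was made from day 14 HNES1 cells in a step of 1 day with Activin A, CHIR99021, FGF2, PI-103 and BMP4 and a step of 2 days with Activin A, PI-103, FGF2 and LDN193189. The other 8 conditions were HNES1 cells at day 0 (naive), day 1, day 3, day 5, day 7, day 10 and day 14 of the naive-to-primed transition, and H9 cells in the primed state. HNES1 and H9 are established human embryonic stem cell lines, so NE and DE both come from 1 line, and H9 differs from the other conditions in line as well as in state.

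Poised enhancers are regulatory elements that bear the repressive Polycomb mark in pluripotent cells, often close to developmental genes that are still silent. Polycomb-bound elements are known to meet in the nucleus before their genes are active. Neuroectoderm gives rise to brain, spinal cord and neural crest, and definitive endoderm to gut, liver and pancreas, so the pair sets an ectodermal against an endodermal fate of the same starting cells.

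The score is the CHiCAGO interaction score, on a log scale, which rates how far a contact exceeds the background expected at its distance. A score of 5 or more counted as a call. Each condition had 1 score per contact that pooled its 2 libraries, so the replicate spread is unknown and conditions were compared without a test. Read depth was unknown, and a score can rise with depth. NE had 32672 calls within chromosomes and DE had 29563. The Wilson 95% intervals given with shares cover counting error only, and contacts that share a bait are not independent. A score listed at 0 was read as no more than that listing.

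The sequences below show what a bait or an other end of these contacts looks like at gene promoters. They are windows of 300 bases, 250 before and 50 after the annotated start, from RefSeq (GRCh38.p14), each given on the strand of its gene, with the DpnII cut site GATC in capitals. SKAP2 (a signalling adaptor) and HOXA6 (a homeobox gene of body patterning) stand at the bait and the other end of 1 contact. SST (the peptide hormone somatostatin) lies at a bait with 3 strong contacts, and MEIS2 (a homeobox cofactor) lies at an other end. The SKAP2 window is chr7:26857674-26857973 on the minus strand, and the HOXA6 window is chr7:27147725-27148024 on the minus strand. The SST window is chr3:187670345-187670644 on the minus strand, and the MEIS2 window is chr15:37098647-37098946 on the minus strand.
SKAP2: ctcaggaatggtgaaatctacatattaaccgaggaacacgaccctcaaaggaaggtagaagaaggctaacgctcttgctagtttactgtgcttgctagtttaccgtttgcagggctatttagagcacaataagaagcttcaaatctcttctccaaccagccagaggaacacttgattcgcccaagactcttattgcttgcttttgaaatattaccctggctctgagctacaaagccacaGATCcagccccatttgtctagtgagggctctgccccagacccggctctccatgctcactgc
HOXA6: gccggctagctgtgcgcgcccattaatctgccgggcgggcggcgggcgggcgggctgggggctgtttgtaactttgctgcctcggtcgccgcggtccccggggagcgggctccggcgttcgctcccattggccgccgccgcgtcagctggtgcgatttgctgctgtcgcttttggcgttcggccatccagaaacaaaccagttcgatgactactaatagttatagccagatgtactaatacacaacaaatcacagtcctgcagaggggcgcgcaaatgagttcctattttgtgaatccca
SST: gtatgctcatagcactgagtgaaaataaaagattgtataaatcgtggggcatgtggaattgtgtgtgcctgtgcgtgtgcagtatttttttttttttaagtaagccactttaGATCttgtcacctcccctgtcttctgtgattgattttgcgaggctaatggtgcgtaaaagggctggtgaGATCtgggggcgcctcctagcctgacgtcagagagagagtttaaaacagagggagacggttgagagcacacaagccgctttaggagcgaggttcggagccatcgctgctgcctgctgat
MEIS2: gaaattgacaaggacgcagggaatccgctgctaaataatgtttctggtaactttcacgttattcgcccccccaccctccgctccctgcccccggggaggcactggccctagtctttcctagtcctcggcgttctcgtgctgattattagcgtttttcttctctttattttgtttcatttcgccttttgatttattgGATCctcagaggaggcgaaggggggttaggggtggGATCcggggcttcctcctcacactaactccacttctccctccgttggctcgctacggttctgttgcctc
The SKAP2 bait covered 243 of the 300 bases and the SST bait covered 116, while the HOXA6 and MEIS2 windows lay wholly inside their other ends of about 5 kb. GATC was found 1 time in the SKAP2 window, 2 times in SST, 2 times in MEIS2 and not in HOXA6. It occurs in 40.0% of all 22116 promoter windows, and being a palindrome it reads the same on both strands. The CG dinucleotide occurred 6 times in SKAP2, 29 times in HOXA6, 11 times in SST and 16 times in MEIS2, against a median of 21.0 in all windows. The median was 17.0 in 23 windows at baits of the strong contacts and 7.00 in 28 windows at their other ends. The 2 other ends shown thus hold more CG than is typical of such windows.

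The rule fixed the NE and DE scores, which are therefore a description. NE scores had a median of 11 and reached 29.0. They lay between 10 and 11 in 263 of the 509 contacts, between 11 and 15 in 217, and at 15 or more in 29. DE scores had a median of 2.37 and were listed at 0 in 73 contacts (14.3%), while 198 (38.9%) lay between 3 and 5. The smallest difference NE minus DE was 5.24 and the median was 9.23. NE held the highest of the 10 scores in 484 contacts, which the NE limit of the rule favours, and this count was not taken for other contacts. Of the 1043 contacts with 10 or more in NE, the 509 made up 48.8%, and the other 534 scored 5 or more in DE. The reverse choice, 10 or more in DE and under 5 in NE, gave 341 contacts, or 42.2% of the 809 contacts with 10 or more in DE. The number of strong contacts depended on the scale of the scores: it was 197, of which 176 were among the 509, after quantile normalisation across the 10 conditions, and 324 without baits of 20 or more contacts.

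The edges of the rule were narrow. Just inside the NE limit, contacts scored 10.009 (TMEM161B to MEF2C) and 10.013 (NFIX to LYL1), where each contact is named by the gene start nearest to its bait and then to its other end. Just outside stood 9.996 (EPHB3 to MAGEF1), 9.995 (DLX2 to ITGA6) and 9.993 (an unnamed locus to NFATC2). At the DE limit, 4.983, 4.966 and 4.961 were the highest scores kept and 5.004, 5.009 and 5.012 the lowest left out. A contact from FOXD2 with 12.106 in NE was left out by its 5.012 in DE.

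**Figure D1:**
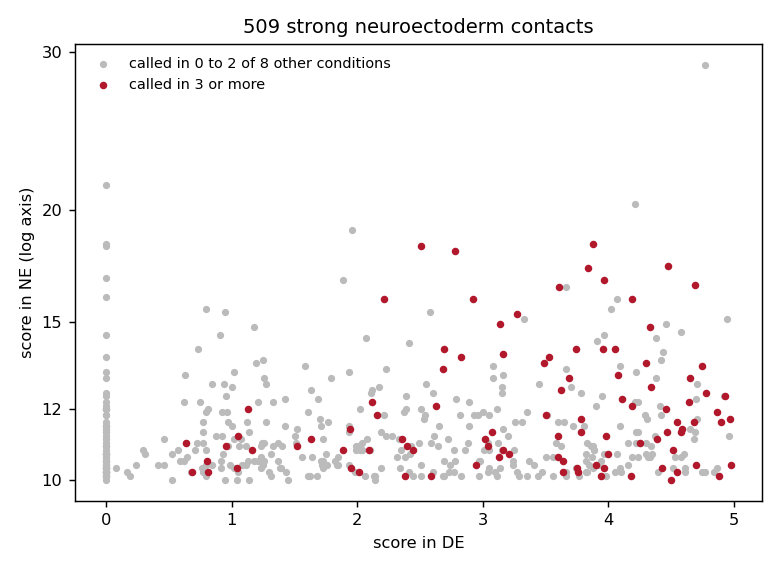
Score in NE (log axis) against score in DE for the 509 strong neuroectoderm contacts, with contacts called in 3 or more of the 8 other conditions in red. Most points lie between 10 and 12 in NE, and the contact at 29.0 in NE scored 4.77 in DE.

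A low DE score for an exact pair of fragments did not mean that the bait was without DE contacts. Of the 464 baits, 381 (82.1%) had a DE call somewhere on their chromosome, against 55.3% of all 25252 baits. The 464 baits averaged 5.78 NE calls and 3.73 DE calls, and all baits averaged 1.29 NE calls and 1.17 DE calls. Within 10 kb of the other end, the same bait had a DE call for 173 of the 509 contacts (34.0%, 95% interval 30.0 to 38.2). Among the 28420 contacts with NE between 5 and 10 and DE under 5, here called the weaker NE contacts, that share was 11.2%, and over all contacts within chromosomes, of which some are DE calls themselves, it was 22.0%. These shares use the DE scores, as the rule did, and are a description. In the reverse choice an NE call lay within 10 kb for 34.6%. Of the 489 other ends, 241 (49.3%) had a DE call from some bait, against 21.9% of the 109016 other ends of all contacts.

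The scores in the 8 other conditions were not used by the rule. Of the 509 contacts, 278 (54.6%, 95% interval 50.3 to 58.9) were called in at least 1 of them, against 21.1% of the weaker NE contacts and 75.6% of all contacts within chromosomes. The strong and the weaker NE contacts are listed through their NE score, whereas many of all contacts are listed only because a score in these 8 conditions reached 5. Calls in 3 or more of the 8 were found in 99 (19.4%), against 2.84% of the weaker contacts and 2.62% of all, and no contact was called in all 8. The remaining 231 contacts (45.4%) were called in none, against 78.9% of the weaker contacts and 24.4% of all. The share with a call in at least 1 of the 8 was 55.1% in the reverse choice, and 87.5% among the 534 contacts strong in NE that also scored 5 or more in DE. Of the strong contacts, 58 (11.4%) reached 10 in some other condition. In single conditions 0.982% to 2.95% of them reached 10, against 0.127% to 0.274% of the weaker contacts and 0.176% to 0.335% of all.

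The share called was 14.9% in naive cells, 13.2% at day 1, 17.1% at day 3, 13.9% at day 5, 14.9% at day 7, 18.3% at day 10, 15.9% at day 14 and 21.8% in H9 cells. Over all contacts within chromosomes the shares were 10.0% in naive cells, 10.1% at day 1, 12.4% at day 3, 11.7% at day 5, 10.2% at day 7, 10.3% at day 10, 11.2% at day 14 and 13.0% in H9 cells. Every listed contact reached 5 in some condition, and the strong contacts did so in NE, so these all-contact shares are a high background for them. The interval in H9 cells was 18.4 to 25.6, and at day 14, the starting cells of NE, it was 13.0 to 19.3. H9 cells had the highest of these 8 shares, but after quantile normalisation naive and H9 cells stood level at 25.9%, with calls at 10 the share was 2.95% at day 3 and 2.55% in H9 cells, and with DE listed at 0 day 3 and H9 cells stood level at 5.48%. Between the primed states, 37 strong contacts were called in day 14 and in H9 cells, which is 45.7% of the day 14 calls and 33.3% of the H9 calls, against 8.60% and 7.41% over all contacts and 21.6% and 19.0% over the weaker NE contacts. In naive and day 14 cells 26 strong contacts were called, which is 34.2% of the naive calls and 32.1% of the day 14 calls, against 6.80% and 6.06% over all contacts and 16.1% and 12.5% over the weaker ones.

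**Figure D2:**
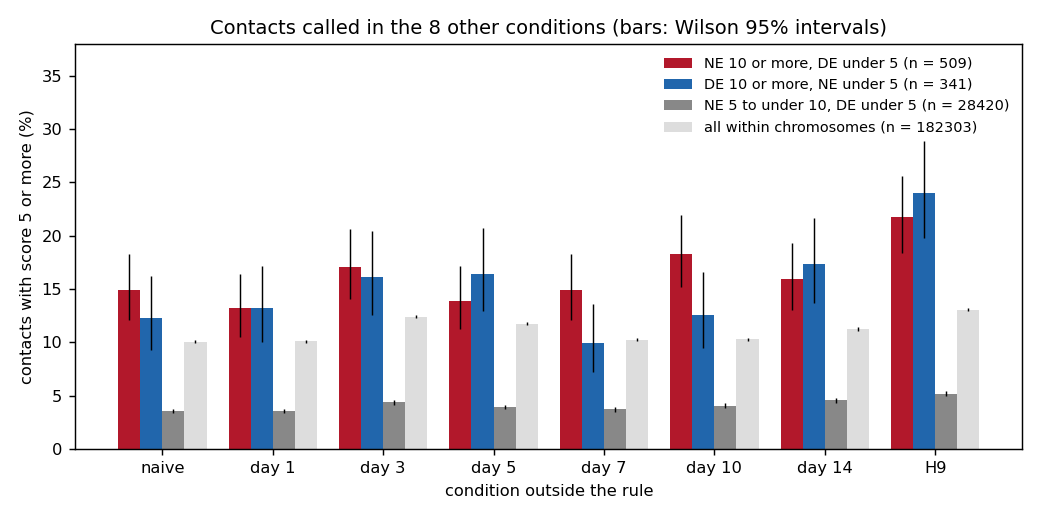
Share of contacts with a score of 5 or more in each condition outside the rule, for the strong NE contacts, the reverse choice in DE, the weaker NE contacts and all contacts within chromosomes. Bars carry Wilson 95% intervals, and the red bars stand between 13.2% and 21.8%, above the weaker NE contacts (3.54% to 5.16%) in every condition.

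The share with a call elsewhere was also taken over classes of the DE and NE scores, as a description within the ranges the rule left. By DE score it was 21.9% (14.0 to 32.7) of the 73 contacts listed at 0 in DE, 50.4% (44.1 to 56.7) of the 238 above 0 and under 3, and 71.7% (65.1 to 77.5) of the 198 at 3 or more. The weaker NE contacts showed the same order at lower levels, with 8.65%, 21.2% and 40.2%. By NE score the share was 50.2% (44.2 to 56.2) at 10 to 11, 58.1% (51.4 to 64.4) at 11 to 15 and 69.0% (50.8 to 82.7) at 15 or more, with intervals that overlap.

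The contacts spanned 23 chromosomes and 387 loci, when baits within 50 kb were joined. Of these loci 301 held 1 contact, 64 held 2, and the fullest held 8. Chromosome 1 had 59 contacts (11.6% of the 509, against 10.1% of all contacts), chromosome 12 had 46 (9.04% against 7.20%), and chromosomes 2 and 5 had 41 each. A bait had at most 3 strong contacts, and 38 of the 464 baits had more than 1.

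The fullest locus lay on chromosome 1 at FOXE3, a lens transcription factor gene, and FOXD2, the gene of another forkhead factor. Its 8 contacts started from 8 baits between 47417661 and 47450374 and reached 5 other ends 247 to 295 kb away, in the interval before TRABD2B. The strongest, 279 kb long, scored 13.9 in NE and 4.44 in DE, with 5.41 in naive cells, 3.55, 3.02, 5.36, 0, 2.72 and 3.32 at days 1, 3, 5, 7, 10 and 14, and 3.22 in H9 cells. It was therefore called in naive and day 5 cells besides NE. The contact from the FOXE3 start scored 11.3 in NE and 2.19 in DE, and no more than 2.90 in any other condition. Of all 334 contacts of the baits in this locus, 101 (30.2%) were called in NE and 73 (21.9%) in DE, against 24 (7.19%) in naive, 39 (11.7%) in day 14 and 49 (14.7%) in H9 cells. Over all contacts within chromosomes the shares were 17.9% in NE, 16.2% in DE, 10.0% in naive, 11.2% in day 14 and 13.0% in H9 cells. The NE calls of the locus include the 8 contacts that chose it.

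At NEURL1B on chromosome 5, which encodes a ubiquitin ligase of the Notch pathway, 5 contacts from 3 baits reached other ends 176 to 225 kb away. The gene start nearest to these ends was that of SH3PXD2B, a scaffold gene of cell protrusions. The 5 contacts scored 10.3 to 12.6 in NE and 1.56 to 3.75 in DE. The pair that shares the other end 19.7 kb from SH3PXD2B scored 9.04 and 13.8 in H9 cells. All 5 but 1 were called in at least 2 of the other conditions.

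Near TLR5, the flagellin receptor gene on chromosome 1, 4 contacts reached other ends nearest to CAPN8, CAPN2 (calpain proteases) and SUSD4. Their NE scores were 14.9, 11.5, 10.2 and 10.0 and their DE scores 4.46, 2.89, 2.60 and 2.14. None of the 4 was called in any of the 8 other conditions, the highest score there being 4.87 at day 10.

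OTX2, a transcription factor of forebrain and midbrain, had 4 contacts from baits 36.6 to 108 kb from its start. The strongest, toward EXOC5, scored 11.4 in NE and 4.59 in DE and was called in 5 of the other 8 conditions. The other 3 had NE scores of 10.7, 10.4 and 10.2, and none of them was called in another condition. At the baits nearest to OTX2, 110 of 476 contacts (23.1%) were called in NE, 75 (15.8%) in DE and 42 (8.82%) at day 14, against 17.9%, 16.2% and 11.2% of all contacts, and the NE calls include the 4 that the rule chose.

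The DLX3 and DLX4 locus, a pair of homeobox genes, had 4 contacts to other ends 105 to 142 kb away. The gene start nearest to these ends was that of TAC4, a tachykinin gene. The 4 contacts scored 14.4, 11.2, 10.5 and 10.2 in NE and 4.38, 2.23, 1.25 and 3.83 in DE. The first was called at day 14 (8.14) and the last at day 7 (7.44). The forkhead genes FOXC2 and FOXL1 had 4, with 11.2 to 11.8 in NE and 0 to 3.20 in DE, over distances of 317 to 619 kb. At WNT5B, a Wnt ligand, and FBXL14, 4 contacts scored 10.3 to 14.3 in NE and 3.11 to 4.09 in DE.

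Some contacts were high in nearly every pluripotent stage and low in DE. The SKAP2 bait contacted the HOXA5 and HOXA6 region at 289 kb with 10.3 in NE and 1.95 in DE, and scored 7.10 in naive cells, 6.05, 9.33, 9.03, 0.910, 8.56 and 9.38 at days 1, 3, 5, 7, 10 and 14, and 8.64 in H9 cells. It was called in 7 of 8, with day 7 low. A bait at HOXA4 contacted an other end nearest to SKAP2 from the opposite side, over 279 kb. This contact scored 12.1 in NE and 4.19 in DE, with calls in 6 of 8. The MEIS2 contact, from a bait 217 kb from the start to the promoter window shown above, scored 11.1 in NE and 1.63 in DE, with 7.17 in naive cells, 13.8 in H9 cells, and between 4.28 at day 1 and 15.9 at day 14 in the transition. Here NE lay below day 14 and H9 cells, and DE below every other condition. The contact of the SST bait with an other end nearest to MASP1, a complement protease gene, scored 14.0 in NE and 2.69 in DE. It was called in 7 of 8, day 5 (1.02) being the exception. In all, 19 contacts were called in 6 or 7 of the 8, among them VSIG10L2 to RPUSD4 with 13.8 in NE, 3.16 in DE and 17.8 at day 14. Calls in 6 were found in 2.55% of the strong and 0.123% of the weaker NE contacts, and calls in 7 in 1.18% and 0.0809%.

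At the opposite extreme, 20 contacts were listed at 0 in all 8 other conditions, 13 of these also in DE. That share was not taken over other contacts. In single conditions 17.3% to 28.1% of the strong contacts were listed at 0, against 35.2% to 43.1% of the weaker NE contacts and 34.1% to 41.2% of all. The highest NE score of the 20 joined a bait 0.698 kb from OLFM1, a secreted glycoprotein gene of neurons, to a fragment 258 kb away with 21.3 in NE. Others in this class lay at SLIT2, an axon guidance ligand, and KCTD1. The SOX17 bait 0.888 kb from the start of this endoderm transcription factor scored 10.9 in NE and 1.33 in DE, and was listed at 0 in all 8 others.

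**Figure D3:**
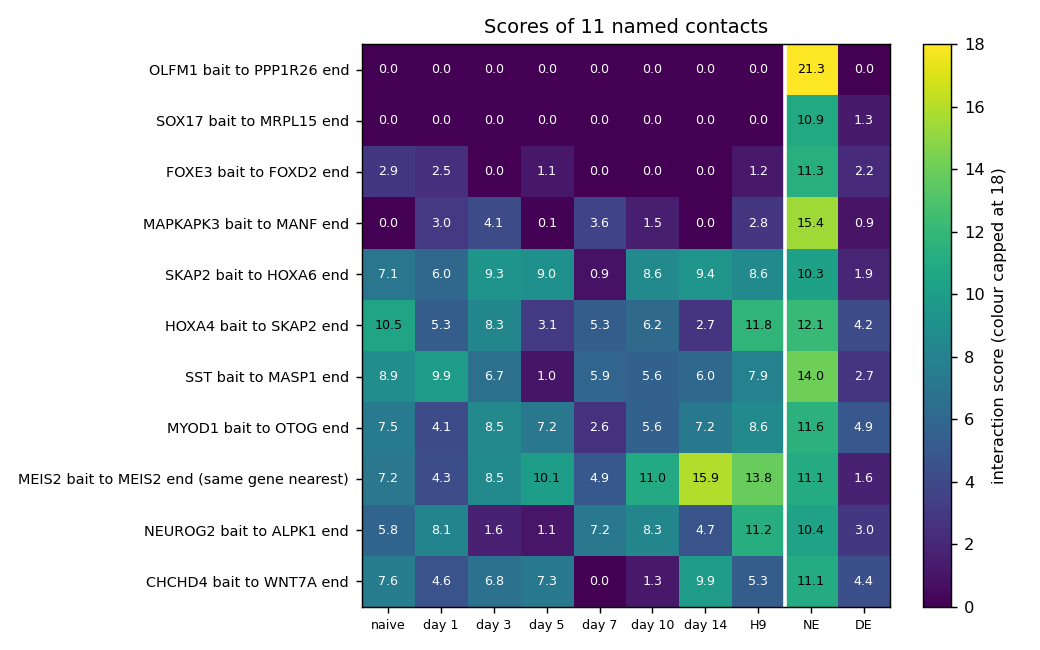
Scores of named contacts in all 10 conditions, with NE and DE right of the white line. The OLFM1 row reads 21.3 in NE and 0 elsewhere, while the MEIS2 row reaches 15.9 at day 14 and 13.8 in H9 cells.

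Among the 15 highest NE scores, from 16.5 to 29.0, 12 were called in at least 1 other condition and 7 in 3 or more. Over all strong contacts, which include these, the shares were 54.6% in at least 1 and 19.4% in 3 or more. Over all contacts within chromosomes they were 75.6% and 2.62%. Of the strong contacts at 15 or more in NE, 69.0% (50.8 to 82.7) were called in at least 1, and no difference was tested. EPHB3, an ephrin receptor gene, to POLR2H scored 19.0 in NE and 1.96 in DE, and 7.85 in naive cells. PJA1 to EFNB1, the gene of an ephrin ligand, scored 18.2 in NE and was listed at 0 in DE, with 5.50 at day 14. AKAP12, a kinase scaffold, to MTHFD1L scored 17.2 in NE and 3.84 in DE, and 10.8 in H9 cells. A contact from a bait 383 kb from MTX2 to HOXD8 scored 16.7 in NE and 3.97 in DE, and 10.1 at day 7. MAPKAPK3 to MANF, a secreted factor of endoplasmic reticulum stress, lay 770 kb apart and scored 15.4 in NE and 0.943 in DE, with at most 4.12 elsewhere.

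Distances were mostly between 100 and 500 kb (75.2%), with a median of 259 kb, quartiles of 154 and 378 kb, and a range from 14.4 kb (LAG3 to CD4) to 37.9 Mb. All contacts within chromosomes had a median of 228 kb, and 74.6% lay between 100 and 500 kb. Under 100 kb were 11.2% (8.74 to 14.2) of the strong contacts and 15.7% of all. At 1 Mb or more were 3.14% (1.94 to 5.04), against 0.496% of all contacts, and 2.93% of the reverse choice in DE. Of the 16 strong contacts at 1 Mb or more, 12 spanned over 10 Mb, and lay on chromosomes 16 (6), 9 (3), 1 (2) and 7 (1). On chromosome 9 the same pair of fragments was listed from both ends, with 16.0 and 10.1 in NE. The 5 contacts of the SHCBP1 side of chromosome 16 crossed to 5 fragments over 11 Mb away, and 1 of them had the highest NE score of the set (29.0), with 4.77 in DE and 7.37 at day 10. The bait of that contact lay 233 kb and its other end 205 kb from the nearest gene start. Apart from these 12, the longest contact was 2.24 Mb. Of the 12, 4 were called in at least 1 other condition, and without them the share of the strong contacts called elsewhere was 55.1%, an alternative added after seeing the data.

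**Figure D4:**
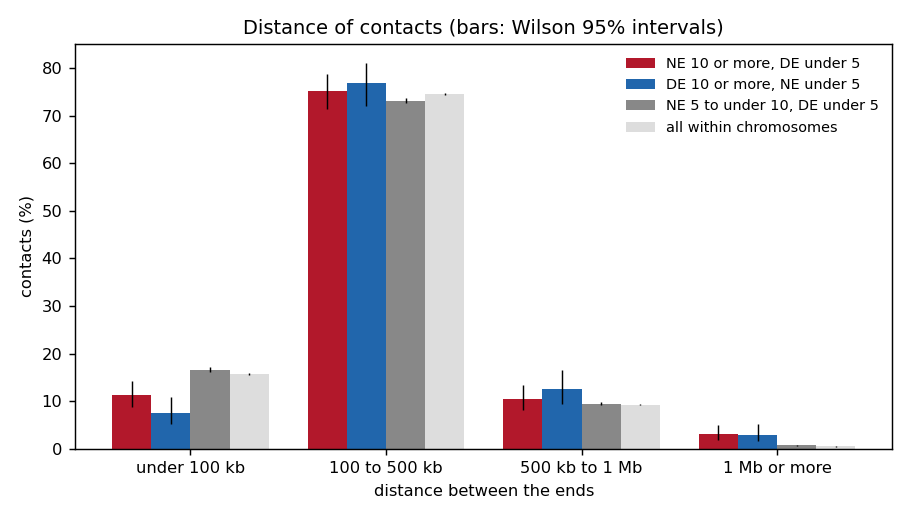
Share of contacts in 4 distance classes for the strong NE contacts, the reverse choice in DE, the weaker NE contacts and all contacts within chromosomes, with Wilson 95% intervals. The strong contacts had 11.2% under 100 kb and 3.14% at 1 Mb or more.

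Gene starts lay at the ends about as often as among all contacts. With a start within 1 kb, the bait was linked to a gene in 118 of the 509 contacts (23.2%), against 23.3% of all contacts, and the other end in 43 (8.45%), against 7.94%. At least 1 end was linked in 148 (29.1%, 25.3 to 33.2), against 28.8%, and both ends in 13 (2.55%), against 2.49%. The other end was itself a bait in 8 contacts (1.57%), against 1.31% of all.

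Contacts nearest to neuroectoderm genes did not make up a higher share than among all contacts. Of the 58 genes of the neuroectoderm and neural plate list, 2 had a start within 1 kb of an end, MEIS2 and GBX2, the gene of a hindbrain homeobox factor. These contacts made up 0.393% of the 509, against 0.312% of all. Taking the gene start nearest to an end at any distance, 16 of the 58 genes were nearest to 21 contacts (4.13%, 2.71 to 6.22), against 5.01% of all contacts. OTX2 had 4 of them, EN1 had 2, and LHX2, SOX1 and OTP had 1 each. SOX1 and LHX2 are neural and cortical transcription factors.

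Neurogenesis genes were nearest to 15 contacts (2.95%, 1.79 to 4.80), against 2.43% of all, with DLX2 at 5, and NEUROG1, NEUROG2 and ISL1 at 2 each. The share was 4.69% (2.91 to 7.49) in the reverse choice and 2.25% among the 534 contacts strong in NE with 5 or more in DE. NEUROG1, a proneural factor, had the only link within 1 kb, a contact of 35.3 kb that scored 10.8 in NE and 3.89 in DE, with 5.47 at day 3 and 5.37 in H9 cells. NEUROG2 to ALPK1 scored 10.4 in NE and 2.95 in DE, and was called in 5 of the other 8 conditions.

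The definitive endoderm list, 27 genes in all, was nearest to 13 contacts (2.55%, 1.50 to 4.32), against 1.43% of all. The share was 1.47% in the reverse choice and 3.00% (1.85 to 4.81) among the 534 contacts strong in NE with 5 or more in DE. Of the 13, FOXA2, which also acts in the floor plate of the neural tube, had 4, SOX17 had 3, GATA4 had 2 and CXCR4 had 1. The bait at the FOXA2 start scored 10.8 in NE and 1.89 in DE over 251 kb, with 8.88 at day 5. GATA4 to FAM167A scored 14.5 in NE and 0.908 in DE. At the baits nearest to SOX17, 45 of 164 contacts were called in NE, the 3 chosen ones included, and 39 in DE. Both shares were above those of all contacts, 17.9% in NE and 16.2% in DE.

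HOX genes were nearest to 13 contacts (2.55%, 1.50 to 4.32), against 1.75% of all. Their share was 2.93% in the reverse choice and 2.81% among the 534 contacts strong in NE with 5 or more in DE. HOXC11 to SMUG1 scored 12 in NE and 1.13 in DE and was called in 5 of 8, with 17.5 at day 1 and 13.4 at day 3. The contact of HOXC8 scored 10.3 in NE and 4.61 in DE, and at most 1.29 in the other conditions. Mesoderm genes were nearest to 17 contacts (3.34%) against 2.73% of all, signalling genes to 11 (2.16%) against 2.61%, axon guidance and adhesion genes to 12 (2.36%) against 1.88%, neural crest genes to 6 (1.18%) against 2.03%, pluripotency genes to 4 (0.786%) against 1.07%, Polycomb genes to 1 (0.196%) against 0.370%, and housekeeping genes to none of 509, with a Wilson upper bound of 0.749%, against 0.0900%. The muscle factor gene MYOD1 to OTOG scored 11.6 in NE and 4.90 in DE and was called in 6 of 8. SNAI2, a neural crest factor, scored 13.3 in NE and 2.23 in DE, and was called in none.

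**Figure D5:**
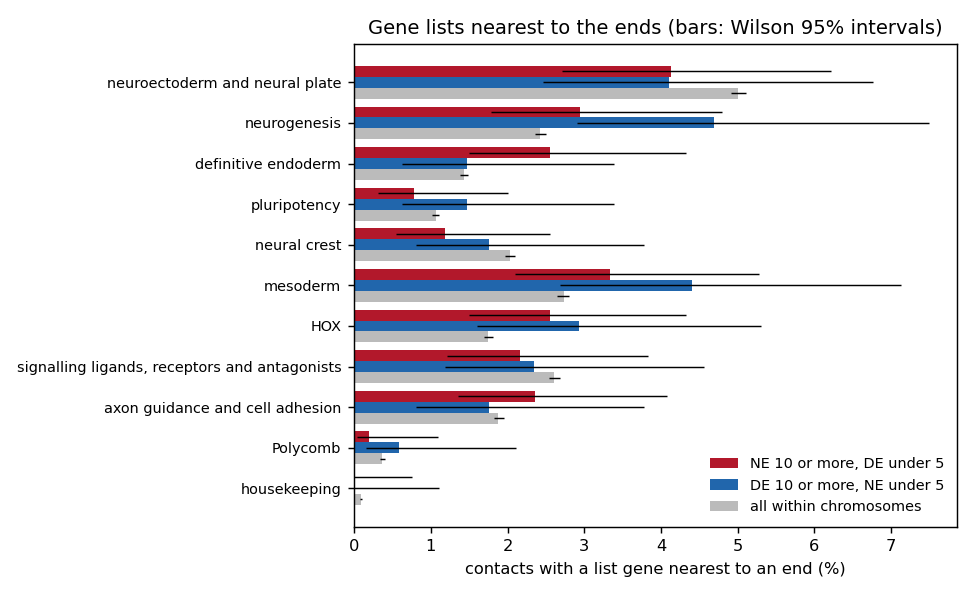
Share of contacts with a gene of each list nearest to either end, for the strong NE contacts, the reverse choice in DE and all contacts within chromosomes, with Wilson 95% intervals. The neuroectoderm list stands at 4.13% of the strong NE contacts and 5.01% of all, and the definitive endoderm list at 2.55% and 1.43%.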

How the data were processed

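Contacts were measured in 20 capture Hi-C libraries, 2 for each of 10 conditions. The deposited matrix gave 1 CHiCAGO score per contact and condition, computed by the authors, and the labels assign both libraries of a condition to its column. Coordinates were on GRCh38, per the submitters' processing notes. For the aligner, caller version, fragment binning and filters, nothing is stated in the sources used here, and read depth was unknown.

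Contacts with bait and other end on the same chromosome were kept, and the rule was applied to the scores as deposited, without scaling between conditions. Baits had a median length of 629 bp and other ends of 5264 bp. Protein-coding genes (19956 after 94 readthrough genes were left out) were linked within 1 kb of their start, taken from RefSeq promoter windows for 15768 and from either annotated end for 4188. Of 841 promoter windows that hold the start of a bait, 841 have GATC there. Loci joined baits within 50 kb. Shares carry Wilson 95% intervals. The members, the 11 gene lists and the named contacts (the highest NE scores, the fullest loci, list genes, contacts called in 3 or more other conditions, the longest, the shortest and those at the thresholds) were chosen with earlier results of these data known. Contacts of MAPKAPK3, GATA4, SLIT2 and KCTD1 lie outside that rule and were chosen after their values were seen. The rule was tested on simulated data. The scripts ran in Python 3.11.15 with numpy 2.4.6, pandas 2.3.3, matplotlib 3.10.9 and scipy 1.17.1. Contacts of 1 locus are not reported here.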

Additional observations from a re-analysis of the deposited data

How the results depend on the processing

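The number of strong contacts, 509, depended on the thresholds. It was 2239 at an NE threshold of 8, 128 at 12, 311 with DE under 3, 73 with DE listed at 0, and 324 without baits that had 20 or more contacts. With scores quantile-normalised across conditions within chromosomes it was 197, of which 176 were among the 509, and leaving out contacts with a DE call within 10 kb, an alternative chosen after seeing the data, left 336. The share called in at least 1 of the other 8 conditions, 54.6%, was 43.7% at NE 8, 64.8% at NE 12, 43.7% with DE under 3, 21.9% with DE at 0, 65.5% after quantile normalisation, 44.1% without the busy baits and 44.3% without contacts with a nearby DE call. With calls at 3 it was 79.4% and with calls at 10 it was 11.4%. The median distance was 239 kb at NE 8, 278 kb at NE 12, 275 kb with DE under 3 and 334 kb with DE at 0. With DE at 0, the other end was a bait in 5.48%. At least 1 end was linked to a gene in 34.4% at NE 12, 35.6% with DE at 0, 10.0% with a link of 0 kb and 54.6% with a link of 5 kb. The cause was not tested where a value shifted. Of 117 alternative values for these results and for the number of loci, 92 kept the count within 1.5 times or the value within its interval. Most of the 92 came from leaving out 1 chromosome, which removed at most 59 of the 509 contacts and could hardly shift a value. The 92 is therefore no measure of stability, and the 25 values that shifted all lay among the other alternatives. Among those others, values held with each pair counted once, without bait-to-bait contacts and with loci joined over 20 or 100 kb. In the weaker NE contacts, reweighted to the distances of the strong ones, the share called elsewhere was 20.3%.

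Leaving out each chromosome gave 450 to 507 contacts, 54.0% to 55.4% called elsewhere and median distances of 253 to 261 kb. No paired analysis was possible because each score column pools both libraries of a condition, so leaving out a replicate could not be done either. Depth per condition, line and state cannot be told apart in H9 cells.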
